A study of Mus musculus with 6 samples.

Results

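Creatine metabolism was followed through 7 genes in cultured mouse bone marrow stromal cells: Gatm and Gamt, which make creatine, Slc6a8, which imports it, and the creatine kinase genes Ckb, Ckm, Ckmt1 and Ckmt2, which load it with phosphate. These 7 members, of 27195 gene symbols on the array, were read by all probes that the array files name for them, 11 of 56605 probes, and 8 of the 11, for 5 of the 7 genes, were bright enough to be tested among 28607 probes for 15371 genes. The set was chosen on the KO against WT contrast of these arrays, in which Gatm read higher, so the Gatm difference is given as a description without a test. The other 6 genes were named with it by function. The arrays held RNA from 3 wild-type samples (WT) and 3 samples from NONMMUT002667 knockout mice (KO), which lack a long non-coding RNA. In both groups stromal cells of crushed and digested femurs were sorted as Sca-1+ CD29+ CD45- CD11b-, grown, and used at the first passage, and all 6 samples are labelled male. Strain, age, the design of the deletion and the number of animals behind a sample were not given in the sources used here, and a p-value here speaks only to the scatter of 6 samples, which may be technical. Each sample lay on 1 array, read in 1 colour (Cy3).

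Creatine is built in a pair of steps. Gatm, a mitochondrial amidinotransferase, joins the amidino group of arginine to glycine and gives guanidinoacetate and ornithine, and Gamt methylates guanidinoacetate with S-adenosylmethionine. Cells that make little creatine take it up from blood through the sodium- and chloride-coupled transporter Slc6a8. Creatine kinases move phosphate reversibly between ATP and creatine: Ckb and Ckm are the brain-type and muscle-type enzymes of the cytosol, and Ckmt1 and Ckmt2 are the ubiquitous and the sarcomeric enzymes of mitochondria. In bone, Ckb is known as an abundant kinase of osteoclasts, and creatine kinase activity is also found in osteoblast cultures.

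The readings below rest on 60-base probes. The Gatm sequence here is the one of its 2 probes with the lower signal (A_55_P2625988; mm9 chromosome 2, 122423164 to 122423223, minus strand), shown because it reads a stretch of Gatm separate from that of the brighter probe. The brighter one, A_51_P461319, lies 2290 bases away at 122420814 to 122420873 on the same strand.
Gatm A_55_P2625988: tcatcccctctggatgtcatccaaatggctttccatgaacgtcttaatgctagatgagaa
The Slc6a8 probe A_66_P139208 (chromosome X, 70925849 to 70925908, plus strand) and the Ckb probe A_55_P1976224 (chromosome 12, 112907787 to 112907846, minus strand) gave the second reading of the transporter and the brighter reading of the kinase.
Slc6a8 A_66_P139208: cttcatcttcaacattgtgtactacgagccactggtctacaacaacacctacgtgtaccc
Ckb A_55_P1976224: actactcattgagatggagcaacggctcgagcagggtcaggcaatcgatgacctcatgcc
The other Ckb probe, A_52_P385606, and the single Ckm probe, A_51_P380807, were laid over like stretches of these 2 related kinases. The 56 bases that align without a gap are shown with the differing bases in capitals.
Ckb A_52_P385606: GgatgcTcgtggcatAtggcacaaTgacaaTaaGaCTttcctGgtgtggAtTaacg
Ckm A_51_P380807: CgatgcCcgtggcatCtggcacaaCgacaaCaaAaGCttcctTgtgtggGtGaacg
They matched at 45 of 56 positions (80.4%), with no shared run over 8 bases. No member probe shared a run of 20 bases with any other probe of the array.

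All 6 arrays were on 1 slide and in 1 scan. The WT arrays lay in row 1 and the KO arrays in row 2 of that slide, so slide row and group cannot be told apart. On the WT arrays 54.3% to 56.7% of spots were well above background, and on the KO arrays 49.0% to 53.0%. Of 11 markers of marrow stroma, 10 were well above background on all 6 arrays, and so were 13 of 13 macrophage markers, although the sort excluded CD45 and CD11b. Some label fields speak of human blood, and the titles, the organism field and the series text, which speak of mouse stromal cells, were followed. In bulk RNA, fewer cells of a type and less RNA per cell cannot be told apart. Xist, the RNA of the inactive X chromosome, exceeded background in WT replicate 3 (-0.53) and in KO replicate 1 (-0.36) and read at most -5.86 in the other 4 samples, against the male label. Eif2s3y, a Y-linked gene, read -6.72 and -6.32 in those 2 samples and 1.04 to 1.17 in the other 4. Of the other Y-linked genes listed, Ddx3y read -6.82 and -5.17 in those 2 and -1.63 to -1.21 in the other 4. Uty read -6.76 and -6.35 in those 2 and -1.45 to -0.79 in the other 4. Kdm5d went the other way: the 1 tested of its 6 probes read alike in all 6 samples (-1.07 to -0.89). Levels here are log2 signals minus the array's own 75th percentile, so 0 is the signal of that percentile, and levels of different probes cannot be ranked against each other.

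Gatm, the enzyme of the first step, read about 1.6-fold higher in KO by both of its probes. By the brighter probe its level was -0.58, -0.53 and -0.68 in WT replicates 1, 2 and 3 and 0.05, 0.16 and 0.16 in KO replicates 1, 2 and 3. All KO arrays lay above all WT arrays, with a gap of 0.58 between the groups. The WT mean was -0.60 ± 0.07 and the KO mean 0.12 ± 0.06 (SD, n = 3 arrays a group), a log2 difference of 0.72 (SE 0.08) or 1.65-fold. By the second probe the levels were -2.23, -2.13 and -2.31 in WT and -1.66, -1.47 and -1.49 in KO. Here too the groups were apart, by 0.47, and the log2 difference was 0.68 (SE 0.09), or 1.60-fold. In both probes WT replicate 3 was the lowest of the 6 arrays and KO replicate 1 the lowest of the KO arrays. Of the 15371 genes tested, 76 (0.494%) had a difference at least as high as that of Gatm. These values led to the choice of the genes and are no independent support for a change.

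**Figure D1:**
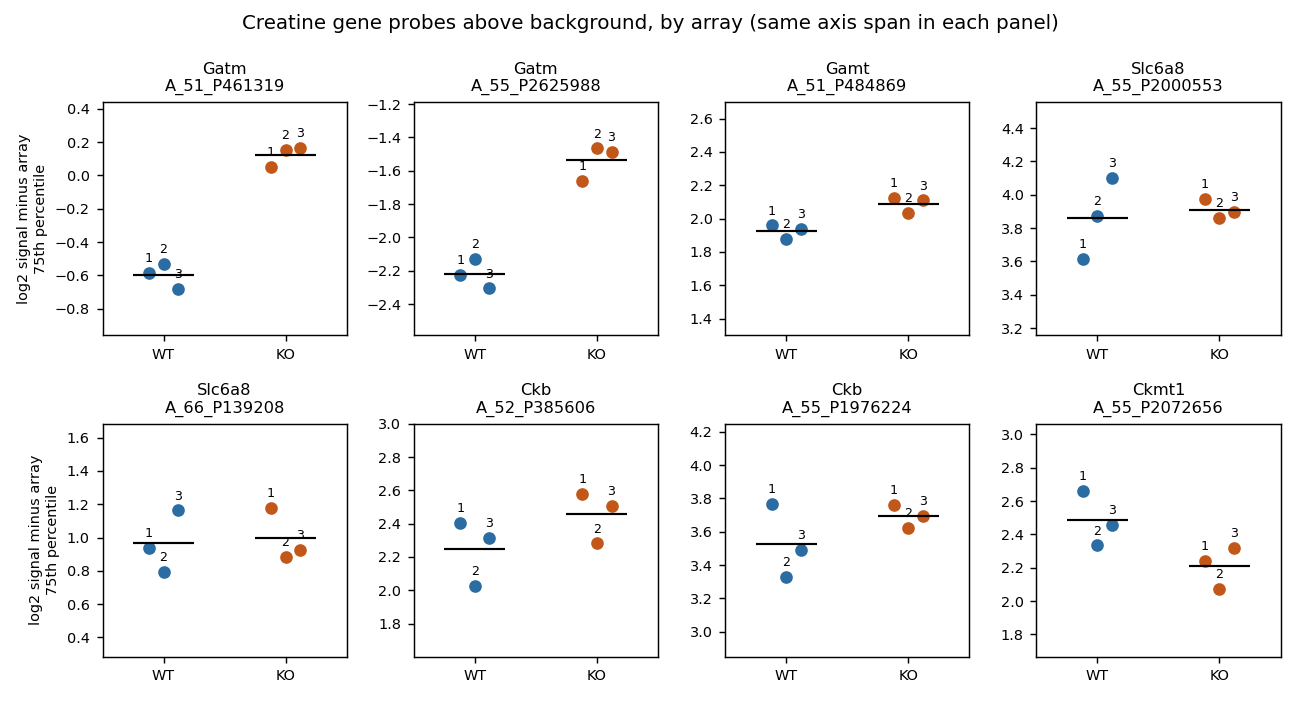
Log2 signal minus the array's 75th percentile for the 8 creatine gene probes that were well above background, with 1 point per array numbered by replicate, a bar at each group mean, and the same axis span in each panel. Both Gatm panels show KO above WT by at least 0.47, while the Slc6a8 and Ckb panels overlap.

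Gamt, the methyltransferase of the second step, lay slightly higher in KO and did not pass the test. Its single probe (A_51_P484869, chromosome 10, 79720991 to 79721047) read 1.96, 1.88 and 1.94 in WT replicates 1 to 3 and 2.12, 2.03 and 2.11 in KO replicates 1 to 3. All KO values were above all WT values, but the gap was 0.07. The log2 difference was 0.16 (SE 0.07, 95% interval -0.01 to 0.33, or 0.994-fold to 1.26-fold; limma adjusted p = 0.341). Gatm was picked because it read higher, so its 0.72 was not set against this interval, and the difference between the genes was not tested.

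Slc6a8, the creatine importer, showed no difference that could be told from replicate spread. Its brighter probe (A_55_P2000553, chromosome X, 70927775 to 70927834) read 3.62, 3.87 and 4.10 in WT and 3.97, 3.86 and 3.90 in KO, so the KO arrays lay inside the WT range. The log2 difference was 0.05 (SE 0.13, 95% interval -0.26 to 0.36; limma adjusted p = 0.903). The second probe read 0.94, 0.79 and 1.16 in WT and 1.18, 0.88 and 0.93 in KO, with a log2 difference of 0.03 (SE 0.13, 95% interval -0.27 to 0.34; limma adjusted p = 0.938). Slc6a8 is on the X chromosome, and by both probes the highest 2 arrays were WT replicate 3 and KO replicate 1, the 2 with Xist signal. Without those 2 arrays the log2 difference of the brighter probe was 0.13 (limma adjusted p = 0.751), and the part of Xist status in these levels was not tested. The sign of this small difference was not stable: it was -0.01 with normexp and quantile normalization and -0.08 without WT replicate 1.

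Ckb, the cytosolic kinase, read a little higher in KO by both probes, within the spread of the arrays. Its brighter probe had levels of 3.77, 3.33 and 3.49 in WT and 3.76, 3.62 and 3.69 in KO. WT replicate 1 was the highest of all 6 arrays and WT replicate 2 the lowest. The log2 difference was 0.16 (SE 0.12, 95% interval -0.13 to 0.46; limma adjusted p = 0.585). The other probe, at 112908459 to 112909105, covers 647 bases of the genome with its 60 bases, so its target is split on the chromosome. It read 2.40, 2.02 and 2.31 in WT and 2.58, 2.28 and 2.51 in KO, with a log2 difference of 0.21 (SE 0.13, 95% interval -0.10 to 0.52; limma adjusted p = 0.507). The difference of the brighter probe ranged from 0.06 without WT replicate 2 to 0.28 without WT replicate 1, and passed in neither case.

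Ckm and Ckmt2, the kinases of muscle cytosol and of muscle mitochondria, were not well above background on any array. The Ckm probe (chromosome 7, 20002222 to 20004829) read from -6.85 to -5.87 and the Ckmt2 probe (A_51_P165293, chromosome 13, 91993242 to 91995390) from -6.81 to -5.86. The lowest signal counted as well above background lay from -4.62 to -4.41 on WT arrays and from -4.15 to -3.60 on KO arrays. The Ckm and Ckmt2 levels were below that, so no fold is given. For both probes all KO values lay above all WT values, by a gap of 0.22. The lowest counted signal was also higher on KO arrays, and no change in either gene is read from this order. The Ckb probe that aligns with the Ckm probe was well above background on 6 of 6 arrays. Of 20 skeletal muscle genes listed, 5, among them the regulators Myod1 and Myog, were also not well above background on any array. Another 5 were well above background on all 6 arrays, among them Acta1, which read from 1.81 to 2.00.

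Ckmt1, the ubiquitous mitochondrial kinase, was the one tested creatine gene with a negative difference, and its 2 probes did not read alike. The probe A_55_P2072656 (chromosome 2, 121189414 to 121189473) read 2.66, 2.33 and 2.46 in WT and 2.24, 2.07 and 2.32 in KO. All KO values lay below all WT values, by a gap of 0.01. The log2 difference was -0.27 (SE 0.11, 95% interval -0.54 to -0.00028; limma adjusted p = 0.322), or 1.21-fold lower. The unadjusted p of that limma fit was 0.0498. The probe A_51_P495049 (121189359 to 121189418) overlaps it by 5 bases and was well above background on 0 of 6 arrays, with values from -6.93 to -5.52. In RefSeq (GRCm38.p6), the neighbouring gene Strc overlaps Ckmt1. Which transcript the bright probe reads was not tested.

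Among the 4 tested members besides Gatm, 0 passed limma after adjustment, where 0.0781% of all genes tested passed (0.0130% with a higher value in KO). At an unadjusted limma p under 0.05 there was 1 of the 4, Ckmt1, against 15.0% of all genes (6.94% higher and 8.03% lower in KO). Over all 5 tested members, KO and WT did not overlap for 3 (Gatm, Gamt and Ckmt1), against 22.4% of all genes. Nothing is read from that count, since the contrast served to pick Gatm. Of the 3, 2 were higher in KO, against 12.0% of all genes, and 1 was lower, against 10.4%. The median log2 difference of the 4 members besides Gatm was 0.11, beside 0.02 over all genes tested.

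**Figure D2:**
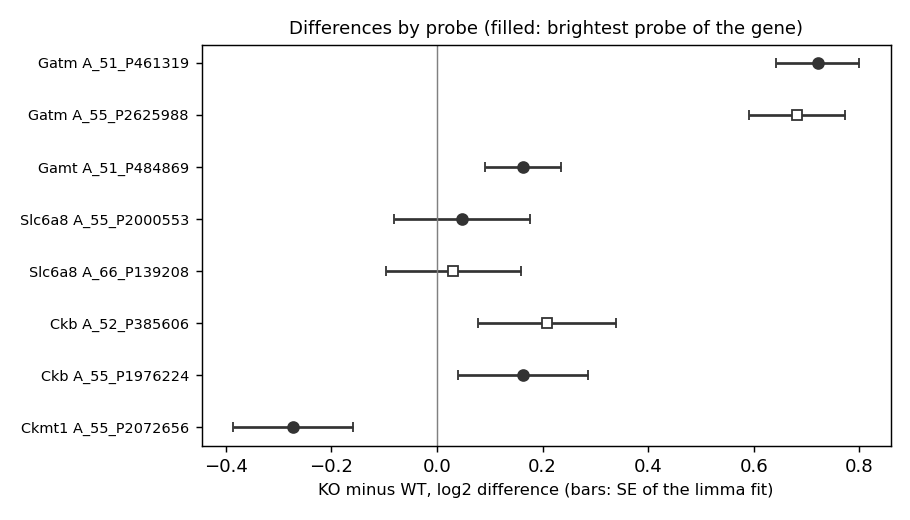
KO minus WT on the log2 scale for each tested creatine probe, as the limma estimate with its SE, filled for the brightest probe of a gene. The Gatm probes stand at 0.72 and 0.68, Ckmt1 at -0.27, and the other 5 probes between 0.03 and 0.21.

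**Figure D3:**
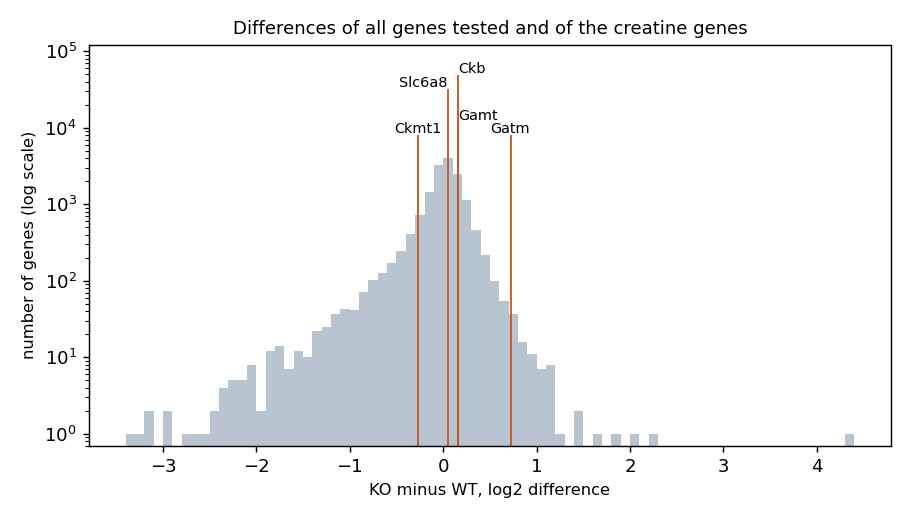
Number of genes (log scale) by KO minus WT log2 difference, in bins of 0.1, for the 15371 genes tested, with lines at the 5 tested creatine genes. Gatm lies in the upper tail at 0.72, and the other 4 lie between -0.27 and 0.16.

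The direction of Gatm held under every processing setting tried. Over 16 alternatives the log2 difference of its brighter probe lay between 0.68 and 0.76, or 1.60-fold to 1.69-fold, and it was 0.72 without the 2 arrays with Xist signal. Other filters on dim probes, a variance trend, a replicate block and a sex term left this difference at 0.72, because they cannot move a probe's estimate. Over both probes separately, in the 16 settings that keep probes apart, it lay between 0.55 and 0.76. Gamt lay between 0.12 and 0.19 and Ckmt1 between -0.35 and -0.19, and neither passed limma in any alternative.

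**Figure D4:**
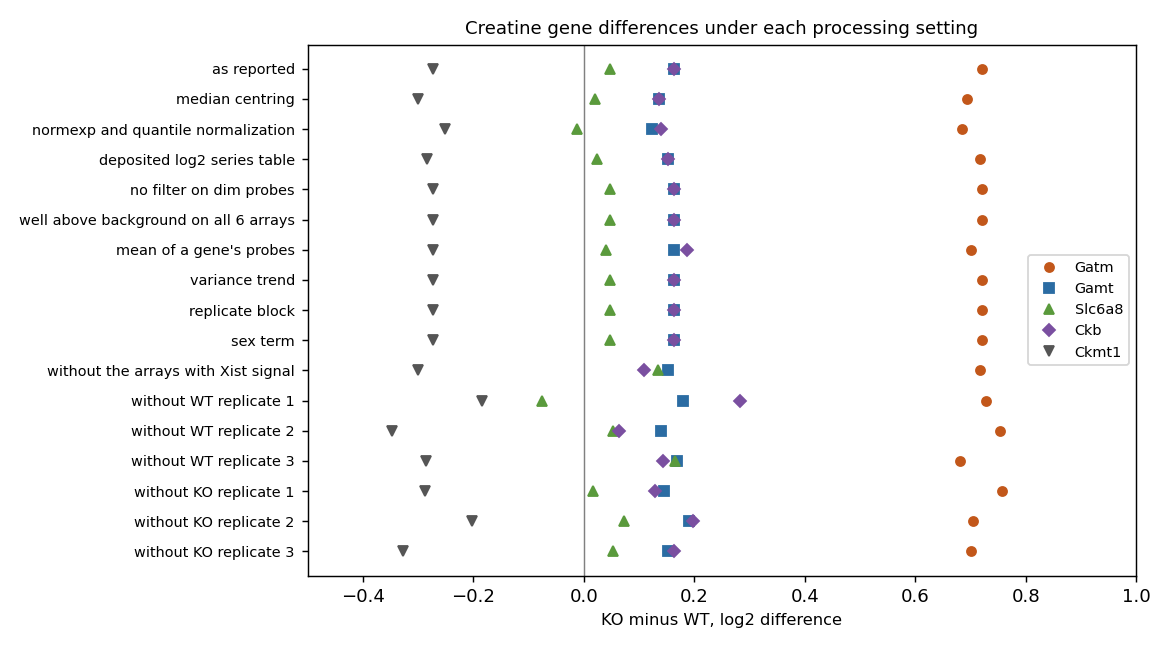
KO minus WT log2 difference of the 5 tested creatine genes, by processing setting, with the reported setting on top. Gatm stays between 0.68 and 0.76, Gamt, Ckb and Ckmt1 keep their sign, and Slc6a8 crosses 0 in 2 of 16 alternatives.

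Of the marker lists for other cell types, only that of osteoblasts held genes that passed limma. All 12 osteoblast genes listed had lower values in KO by the probe that stood for each gene (median log2 difference -1.41). The other tested probes of Runx2 ranged from -0.75 to 0.07 and those of Col1a1 from -0.21 to -0.14. Those of Sp7, Alpl, Bglap, Col1a2 and Phex were all negative. Of the 12 genes, 2 passed (Ibsp and Phospho1, limma adjusted p = 0.0496 each), against 0.0781% of all genes. Phospho1 entered the test only through its WT arrays. It was well above background on 3 of 3 WT arrays and 0 of 3 KO arrays (-4.43, -4.77 and -4.85). Its difference is therefore set against background, and its pass is no separate support. With the filter that required all 6 arrays, 1 of 11 genes passed. At an unadjusted p under 0.05, 12 were lower, against 8.03%. The count that passed ranged from 0 to 3 over the alternatives and was 0 or 1 when any 1 array was left out, 0 without the arrays with Xist signal, 0 with the replicate block and 0 with a sex term. All 12 stayed lower in every alternative that tested them, and 11 of 11 with the filter that required all 6 arrays. Their summed signal, in multiples of the array's 75th-percentile signal, was 909 to 937 on WT arrays and 395 to 648 on KO arrays. The 13 macrophage markers summed to 892 to 938 on WT and 958 to 1010 on KO arrays. Of the 13, 8 were positive (median 0.09). By limma 0 passed, and 1 was higher at an unadjusted p under 0.05, against 6.94% of all genes. In such sums the brightest probes weigh most, here those of Lyz2 and Csf1r (0.12 and 0.13). Their other tested probes had -0.16 and -0.30, and that of Adgre1 -0.08. Those of Cd68 (0.16 and 0.20) and Cd14 (0.29) were positive. The 8 adipocyte genes tested of 10 summed to 29.8 to 31.0 on WT and 35.8 to 40.4 on KO arrays. Of the 8, 7 were positive (median 0.22). By limma 0 passed, and 4 were higher at an unadjusted p under 0.05, against 6.94% of all genes. Fabp4 (0.39) and Pparg (0.27) weigh most in this sum. The negative gene was Adipoq (-0.41, SE 0.48), well above background on 3 WT arrays and 1 KO array. More adipocyte RNA in KO is not read from the sum. Of that list, the brown fat genes Ucp1 and Cidea were not well above background on any array, while Dio2 was on every array. For Dio2, KO minus WT was 0.67 (SE 0.24; limma adjusted p = 0.265), with groups that overlapped. The 9 osteoclast genes tested of 11 summed to 36.2 to 51.5 on WT and 37.5 to 44.7 on KO arrays (median 0.10; 2 higher and 1 lower at an unadjusted p under 0.05), with Calcr not well above background on any array. The 9 skeletal muscle genes tested of 20 summed to 5.99 to 6.86 on WT and 6.49 to 6.87 on KO arrays (median 0.05; 1 lower at an unadjusted p under 0.05). Neural and glial genes had a median of 0.07 over 6 tested of 9 (1 higher at an unadjusted p under 0.05), with Rbfox3, Gfap and Olig2 not well above background on any array. The part of these values in the Gatm reading was not tested.

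Around creatine, 0 genes of the wider chemistry passed the test. Of 67 genes listed for substrates, methyl donors, phosphate transfer, transport and their regulators, 56 were tested, with 7 (12.5%) at an unadjusted p under 0.05 against 15.0% of all genes. Of the 56, 28 had a positive difference, against 55.8% of all genes. The lowest adjusted p among them was 0.127.

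Genes around the supply and use of arginine and glycine, the substrates of Gatm, were mostly at lower values in KO (16 tested of 18; 5 positive, 11 negative; median log2 difference -0.06). For Slc6a9, a glycine importer, KO minus WT was -0.77 (SE 0.18; limma adjusted p = 0.127). Its values were 3.30, 3.56 and 3.45 in WT and 2.94, 2.29 and 2.78 in KO, without overlap. Psph, the last enzyme of serine synthesis, had -0.36 (SE 0.12; limma adjusted p = 0.221). Arg1, which competes for arginine, had 0.50 (SE 0.25; limma adjusted p = 0.403), with groups that overlapped. It was 0.21 without WT replicate 3, 0.16 without the arrays with Xist signal and 0.26 with normexp and quantile normalization. The median of this list was -0.16 without KO replicate 1.

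Genes of the methyl donor cycle, which feeds Gamt, had a median of -0.01 (13 tested of 15; 6 positive, 7 negative). Mat2a, which makes S-adenosylmethionine, read 3.90, 4.06 and 3.97 in WT and 4.21, 4.11 and 4.18 in KO (log2 difference 0.19, SE 0.08; limma adjusted p = 0.311), while its other 2 tested probes had 0.03 and 0.06. With normexp and quantile normalization its difference was -0.01, of opposite sign. Ahcy, which clears the spent methyl donor, had 0.06 (SE 0.14; limma adjusted p = 0.876), and -0.07 without KO replicate 1. Nnmt, a methyltransferase that uses the same donor, had -0.47 (SE 0.16; limma adjusted p = 0.238), and its other tested probe had -0.47. Cbs, which draws homocysteine out of the cycle, read -3.92, -3.96 and -4.27 in WT and -3.93, -1.94 and -1.98 in KO (log2 difference 1.44, SE 0.52; limma adjusted p = 0.267). KO replicate 1 stood with the WT arrays, and without it the Cbs difference was 2.09 and passed (limma adjusted p = 0.0194). It also passed without the 2 arrays with Xist signal (1.98, limma adjusted p = 0.0243). That setting leaves out KO replicate 1 too, so the 2 passes are not separate, and both follow the removal of the KO array that differed. The WT levels of Cbs lay near the lowest signal counted as well above background on WT arrays (-4.62 to -4.41).

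Adenylate and nucleoside diphosphate kinases, which move phosphate between nucleotides, had a median of -0.03 (13 tested of 14; 6 positive). For Nme2, KO minus WT was -0.21 (SE 0.09; limma adjusted p = 0.331), Nme1 -0.20 (SE 0.09; limma adjusted p = 0.348) and Ak1 -0.13 (SE 0.11; limma adjusted p = 0.633), which was -0.02 without KO replicate 2. Nme1 and Nme2 are close relatives whose probes may share targets. Mitochondrial exchange partners, the channels and carriers that work beside mitochondrial creatine kinase, had a median of 0.01 (6 tested of 7; 4 positive). Vdac2, a channel of the outer membrane, had 0.12 (SE 0.07; limma adjusted p = 0.505), and the ADP/ATP carrier genes Slc25a4 and Slc25a5 had -0.15 and -0.02 (limma adjusted p = 0.473 and 0.936).

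Transporters related to Slc6a8, together with other creatine carriers, had 5 of 5 tested members with a positive difference (median 0.20; 7 listed; Slc6a11 and Slc16a12 not well above background on any array). Slc6a13, a GABA carrier, had 0.49 (SE 0.16; limma adjusted p = 0.216; 0.26 with normexp and quantile normalization) and Slc6a6, the taurine carrier, 0.23 (SE 0.11; limma adjusted p = 0.398). Without the arrays with Xist signal the median was 0.08. Among PGC-1 and estrogen-related receptors, regulators of mitochondrial genes, Ppargc1a exceeded background on 0 arrays. Esrra had 0.03 (SE 0.08; limma adjusted p = 0.898), its other tested probe 0.32 and the mean of its probes 0.17, and the sign of the first turned with normexp and quantile normalization (-0.02). Ppargc1b had -0.12 (SE 0.08; limma adjusted p = 0.548), and the median of the 3 tested of 6 was 0.02.

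**Figure D5:**
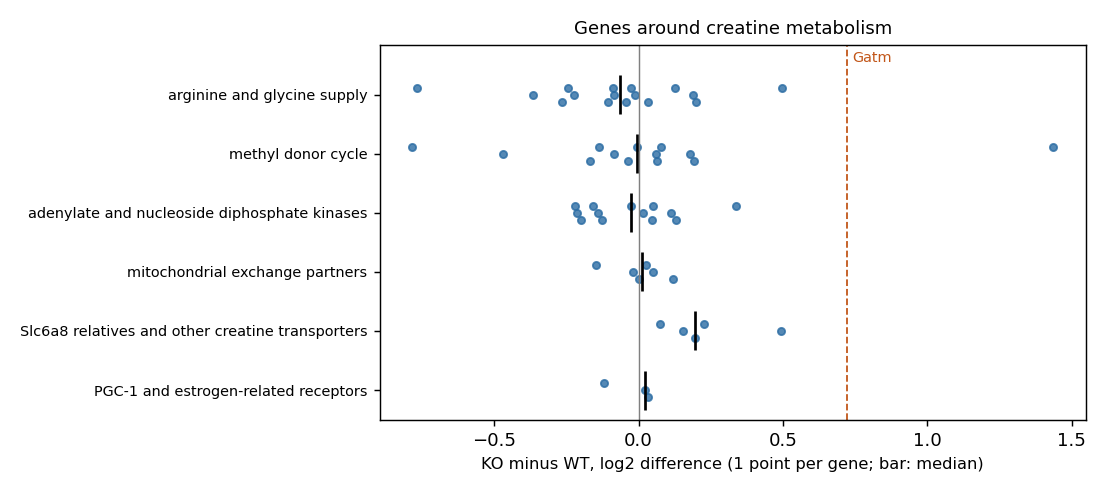
KO minus WT log2 difference of each tested gene in 6 lists around creatine metabolism, with a bar at each list's median and a dashed line at Gatm (0.72). Medians lie between -0.06 and 0.20, and the point at 1.44 is Cbs.

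Genes with a pattern like that of Gatm were looked for by the root mean square difference over the 6 arrays, each gene centred on its own mean. The 4 closest were Wdfy1 (0.07), an endosomal FYVE-domain protein, Pcp4l1 (0.09), a relative of the calmodulin regulator Pcp4, Camk2b (0.11), a calmodulin-dependent kinase subunit, and Trpm1 (0.12), a cation channel. Their log2 differences were 0.83, 0.74, 0.82 and 0.69. Of the other tested probes, those of Wdfy1 had 0.82 and -0.60, the latter of opposite sign, and that of Pcp4l1 had 0.37. For Ckb, the closest were Fam169b, Armh3, Gm26637 and Marchf9, each at 0.04, with log2 differences from 0.09 to 0.17. Each gene was chosen for its nearness on these same arrays, so differences close to that of Gatm or Ckb followed from the choice. These likenesses are descriptions over 6 arrays, which share the slide.

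None of the nearest genes to Gatm on chromosome 2 passed the test. Of the 3 protein-coding genes on each side in RefSeq (GRCm38.p6), 6 of 6 were tested and 0 passed limma (lowest adjusted p = 0.115). Over all genes tested, 0.0781% passed. Spata5l1, next to Gatm, had a log2 difference of 0.16, and AA467197 and Slc30a4 beyond it had -0.43 each. On the other side Slc28a2b had 0.34, Slc28a2 0.40 and Shf -0.53. Besides Spata5l1, whose groups overlapped, each of these genes had groups apart and an unadjusted limma p of 0.0028 to 0.0143. Over all genes, 22.4% had groups apart and 15.0% an unadjusted p under 0.05. The part of the region in the Gatm reading was not tested. Slc28a2 and Slc28a2b are near copies of each other, so their probes may share targets.

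The promoter of Gatm is shown because Gatm is the member with the highest difference. RefSeq promoters were found for 6 of the 7 genes. The 250 bases before the Gatm start are chr2:122611278-122611527 (GRCm38.p6, minus strand, RefSeq), with matches to the CCAAT box on either strand in capitals.
Gatm promoter: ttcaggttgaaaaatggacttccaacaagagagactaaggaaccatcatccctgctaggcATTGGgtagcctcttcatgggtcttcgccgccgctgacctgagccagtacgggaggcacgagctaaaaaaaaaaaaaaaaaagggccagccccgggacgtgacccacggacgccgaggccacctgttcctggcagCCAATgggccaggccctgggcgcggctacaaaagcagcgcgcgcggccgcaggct
The motifs searched on both strands were the CCAAT box, written CCAAT, the TATA box, written TATAAA, the GC box, written GGGCGG, the E box, written CACGTG, an extended nuclear receptor site, written AAGGTCA, and a C/EBP-ATF site, written TGATGNAA. Matches may overlap. Gatm held the CCAAT box 2 times, beginning 55 bases before the start on the sense strand and 190 bases before it on the other, and none of the other 5 motifs. The CCAAT box occurs in 33.8% of the 32851 promoters of that length in the table, the TATA box in 12.4%, the GC box in 32.7%, the E box in 6.02%, the nuclear receptor site in 4.08% and the C/EBP-ATF site in 3.45%. Ckb held the CCAAT box at 46 and 16 bases and the TATA box at 28 bases before its start.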

How the data were processed

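The intensity values are the scanner software's processed signal, mean signal and median background of each spot, made with Agilent Feature Extraction 10.7.1.1 per the file headers; the submitters' processing notes name version 9.1. Probe positions are mm9 per the file headers. The authors' deposited series table holds log2 values with identical quantiles in all 6 columns, and further steps are not given in the sources used here.

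Each processed signal was taken to log2 and set against its array's 75th percentile over non-control spots. Outlier spots (49 to 131 per array) were left out and spots of a probe averaged. Tested probes exceeded the software's background flag on each array of 1 group or both, with at least 2 values per group. KO and WT were compared two-sided by limma 3.58.1 under R 4.3.3 (lmFit, then eBayes, with no covariate), Benjamini-Hochberg adjusted over all 28607 probes, with 0.05 as the threshold, and the fit was tested on simulated data. The tested probe of highest mean stood for its gene. Probes were named through RefSeq (32994 of 56605 by accession, 10224 by symbol, 520 by synonym, 2574 by the file's name, 10293 unnamed). The number of arrays limits the precision.

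The members, lists and alternatives were chosen with earlier results of these data known. Named genes are the 7 members, the 2 genes with the smallest unadjusted p in each list, a fixed set of central genes (Mat2a, Ahcy, Arg1, Ak1, Slc25a4, Slc25a5, Esrra, Ppargc1a and Slc6a6), sex-linked genes, defining markers, and the 4 genes closest in pattern to Gatm and to Ckb. Neighbouring genes and promoter motifs were added after the files were seen.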

Additional observations from a re-analysis of the deposited data

How the results depend on the processing

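Of the creatine genes, Gamt, Slc6a8, Ckb and Ckmt1 stayed on the same side of the limma threshold in all 16 alternatives each, and the brighter Gatm probe moved by less than its spread between replicates. The second Gatm probe, 0.68 as reported, had 0.55 with normexp and quantile normalization, a move above its spread. The count of all genes called, 12 as reported, was 62 with median centring, 156 with normexp and quantile normalization, 153 with a variance trend, 6 when all 6 arrays had to exceed background, 2 when probes of 1 gene were averaged, and 0 without the filter on dim probes (7810 at an unadjusted limma p under 0.05) or with a sex term (2408 at that p). Leaving out 1 array gave 0 to 16 called genes: 0 without WT replicate 2, 1 without WT replicate 1. Among the genes at an unadjusted p under 0.05, 46.3% were higher in KO, 33.6% with median centring and 84.5% without the filter. Of the 56 genes in the lists around creatine, 0 passed as reported, 1 (Cbs) without the arrays with Xist signal and 0 to 1 when 1 array was left out. With the replicate number as a block, 0 genes were called by limma (2354 at an unadjusted p under 0.05). The numbers are not stated to pair samples, and same-numbered arrays deviated together with r of 0.04, 0.17 and -0.11 over 15367 genes, so the pairing was not used; not every array correlated best with its own number. The cause of these moves was not tested. A slide block was not run because all arrays lay on 1 slide.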
